A study of Homo sapiens with 12 samples.

Results

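The aldo-keto reductases of the AKR1C and AKR1B subfamilies were examined in U251-APP cells with or without a CTCF-binding site. They were taken as the rows whose symbol was AKR1C1, AKR1C2, AKR1C3, AKR1B1 or AKR1B10. Of these 5 genes, 2 had a row among the 11178 genes analysed here, AKR1C3 and AKR1B1, and both passed the filter on low values that left 11128 genes for testing. AKR1C1, AKR1C2 and AKR1B10 had no row and are not analysed here.

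Aldo-keto reductases are cytosolic enzymes that use NADPH to reduce the carbonyl group of aldehydes and ketones to an alcohol. AKR1C3 acts on ketosteroids and prostaglandins, and AKR1B1, known as aldose reductase, turns glucose into sorbitol in the polyol pathway and also reduces aldehydes formed from oxidised lipids. Several genes of both subfamilies are known targets of the transcription factor NRF2, which is encoded by NFE2L2 and is held in check by KEAP1.

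U251 is a human glioblastoma line, and U251-APP cells stably express APP, the amyloid precursor protein, with the mutations K670N/M671L, which all 3 groups carry. In the first group, called CTCF-A KO, and the second, called CTCF-B KO, Cas9 and a pair of guide RNAs had removed the CTCF-binding site of that name. CTCF is a DNA-binding protein that helps to form chromatin loops, and the study asked which genes were expressed differently once a site was gone. The third group was wild type (WT) for both sites. Each group had 4 libraries, made from total RNA and read in pairs of 150 bases. According to the labels, edited cells were selected with puromycin and mCherry and grown as single-cell clones. The labels give the WT cells the same CRISPR/Cas9 treatment entry but do not say whether they were cloned, and the titles of the CTCF-B KO libraries carry the gene name MTCH2. Nothing says whether the 4 libraries came from different clones or different cultures, so the p-values reflect no more than the spread among these libraries, which may be technical. An effect of a deletion and a difference between clones cannot be told apart in these groups. The deletions themselves cannot be checked here, since the values are of genes and a binding site has none.

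The values are normalized expression on a log2 scale, and the read depth behind them is unknown. Replicates differed by a median absolute value of 0.0804 to 0.29 (log2) in CTCF-A KO, 0.0555 to 0.081 in CTCF-B KO and 0.0524 to 0.0822 in WT. CTCF-A KO replicates 1, 2 and 3 stood apart. From the fifth of genes lowest in GC content to the fifth highest, their deviation from the WT mean shifted by 0.911, 0.447 and 0.643 (log2), against 0.0858 in replicate 4, -0.0832 to 0.0328 in CTCF-B KO and -0.122 to 0.0758 in WT. AKR1C3 has a GC content of 41.2%, with 19.3% of genes lower, and AKR1B1 one of 53.5%, with 65.8% of genes lower, so results are also given with this trend removed and with replicate 4 as the sole CTCF-A KO library. Of 14 astrocyte and glioma markers, 11 had a row. Their summed linear level was 123555 to 135427 in CTCF-A KO, 113973 to 117885 in CTCF-B KO and 175615 to 197878 in WT. GFAP, the astrocyte intermediate filament, was at 12.57 ± 0.08, 12.83 ± 0.05 and 15.68 ± 0.16 in that order (log2, mean ± SD, n = 4). The means of SOX2, NES, FABP7, SLC1A3, CD44 and PDGFRA were also lower in both knockouts than in WT. VIM and SOX9 were lower only in CTCF-B KO, at 15.94 and 12.37 in CTCF-A KO against 15.92 and 12.31 in WT. GJA1 and EGFR were lower only in CTCF-A KO, at 11.89 and 12.01 in CTCF-B KO against 11.84 and 11.99 in WT. Of 11 neuron markers 4 had a row, SYT1, SNAP25, MAP2 and NEFL. Their summed level was 54444 to 62335 in CTCF-A KO, 13581 to 15299 in CTCF-B KO and 38850 to 42050 in WT. That sum followed NEFL, the highest of the 4, at 15.8, 13.7 and 15.3 (log2 means in the same order). SYT1 was at 7.82, 8.52 and 7.81, SNAP25 at 5.35, 5.96 and 5.53 and MAP2 at 9.54, 9.15 and 9.42. The oligodendrocyte, endothelial and epithelial lists had 1 gene each with a row, CNP of 8, KDR of 6 and KRT18 of 9, and the microglia list had 0 of 9. CNP stood at 6264 to 7852, 5426 to 5603 and 5773 to 6119 in CTCF-A KO, CTCF-B KO and WT. KDR stood at 501 to 632, 674 to 732 and 1198 to 1276, and KRT18 at 369 to 451, 359 to 388 and 463 to 505. The part of these marker levels in the results was not tested. In RNA from whole cultures, fewer expressing cells and less RNA per cell cannot be told apart.

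Stretches upstream of transcription starts of both measured members are shown because the 2 genes changed by different amounts and their upstream bases can be compared directly. They are RefSeq sequence of the assembly GRCh38.p14, and 4 of the 5 members had such windows. Each line gives 250 bases on the strand of the gene, 5′ to 3′, ending just before a start site, and capitals mark the only match to the motifs searched. The lines are AKR1C3 upstream of its outer start (chr10:5048531-5048780, + strand), AKR1C3 upstream of its inner start (chr10:5094164-5094413, + strand) and AKR1B1 (chr7:134459101-134459350, - strand).
AKR1C3 outer start: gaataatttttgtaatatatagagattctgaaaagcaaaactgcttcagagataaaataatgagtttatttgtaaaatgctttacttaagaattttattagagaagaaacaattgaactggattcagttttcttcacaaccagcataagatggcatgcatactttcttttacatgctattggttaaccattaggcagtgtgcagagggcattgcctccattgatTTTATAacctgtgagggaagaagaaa
AKR1C3 inner start: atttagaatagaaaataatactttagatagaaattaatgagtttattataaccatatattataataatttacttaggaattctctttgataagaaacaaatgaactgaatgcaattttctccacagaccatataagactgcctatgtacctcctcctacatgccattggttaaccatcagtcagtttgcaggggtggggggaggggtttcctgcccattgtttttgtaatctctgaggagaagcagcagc
AKR1B1: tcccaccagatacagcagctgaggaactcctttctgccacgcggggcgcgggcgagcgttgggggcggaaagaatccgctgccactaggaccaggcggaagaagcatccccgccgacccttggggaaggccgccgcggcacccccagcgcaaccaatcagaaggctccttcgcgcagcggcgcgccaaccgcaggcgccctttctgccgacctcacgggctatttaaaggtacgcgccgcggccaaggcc
The capitals mark TATAAA read on the opposite strand, with its first base 26 bases before the outer AKR1C3 start. The search covered both strands for the antioxidant response element core TGACNNNGC, the AP-1 site TGANTCA and the TATA box TATAAA, in which N is any base. Among 35116 RefSeq windows of 250 bases, 10.9% held the first motif, 6.57% the second and 10.7% the third. The lines printed here hold no match to the first or the second. The AKR1C3 lines have a GC content of 32% and 35.6%, and the AKR1B1 line one of 68%. A further AKR1B1 window (chr7:134459240-134459489), which overlaps the line shown and is not printed, has a GC content of 50.8% and holds no match to the 3 motifs. Aligned over 250 bases, the inner AKR1C3 stretch was 69.9% identical to that of AKR1C1 and 70.9% identical to that of AKR1C2, the outer stretch was 72.4% and 70.6% identical to them, while those of AKR1C1 and AKR1C2 were 96.5% identical to each other.

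AKR1C3, the ketosteroid and prostaglandin reductase, was higher in both knockouts than in WT, and higher in CTCF-A KO than in CTCF-B KO. The gene (ENSG00000196139) lies at chr10:5035354-5107686 on the + strand (GRCh38, GENCODE 29), in the cluster with AKR1C1 and AKR1C2. Its normalized log2 expression was 9.92, 9.81, 9.78 and 9.51 in CTCF-A KO replicates 1 to 4, 8.87, 9.04, 8.93 and 8.71 in CTCF-B KO, and 7.61, 7.39, 7.55 and 7.60 in WT. No group overlapped another. In CTCF-A KO replicate 4 was the lowest library, in CTCF-B KO replicate 4 was also the lowest, and in WT replicate 2 was. On the linear scale the means were 868 ± 102 in CTCF-A KO, 475 ± 45.5 in CTCF-B KO and 186 ± 12.6 in WT (SD, n = 4).

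With limma and Benjamini-Hochberg adjustment over the 11128 genes, the CTCF-A KO mean exceeded that of WT by 2.21 ± 0.09 (log2, SE), a 4.64-fold rise with an adjusted p of 2.26e-09. The CTCF-B KO mean exceeded that of WT by 1.35 ± 0.09, a 2.55-fold rise with an adjusted p of 1.41e-07. Both differences use the same 4 WT libraries. By size of rise AKR1C3 was number 2 of 11128 genes in CTCF-A KO, and number 15 in CTCF-B KO. A rise of at least 2-fold past the test was shared by 0.944% of genes in the CTCF-A KO comparison, and by 0.377% in that of CTCF-B KO. A group lying wholly above WT was more common, at 25.7% and 26.2% of genes in these comparisons.

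Reads from close relatives could have entered the AKR1C3 value. In the GENCODE 29 transcript of 1807 bases, 212 of 1758 stretches of 50 bases (12.1%) also occur in a transcript of another gene, of which 169 occur in AKR1C2, 135 in AKR1C1 and 109 in AKR1C4. At the read length of 150 bases, 22 of 1658 stretches (1.33%) are shared, all with AKR1C2. How reads matching several genes were counted is not given in the sources used here. A snoRNA annotated inside AKR1C3 on the opposite strand, RF00096, has no row among those analysed here.

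AKR1B1, aldose reductase, was also higher in both knockouts, by less than 2-fold. The gene (ENSG00000085662) lies at chr7:134442350-134459284 on the - strand (GRCh38, GENCODE 29), next to AKR1B10. Its normalized log2 expression was 12.94, 12.87, 12.85 and 12.57 in CTCF-A KO replicates 1 to 4, 12.61, 12.60, 12.58 and 12.54 in CTCF-B KO, and 12.29, 12.23, 12.26 and 12.26 in WT. Both knockouts lay wholly above WT, as did 25.7% of all genes for CTCF-A KO and 26.2% for CTCF-B KO. CTCF-A KO replicate 4 fell inside the CTCF-B KO range. The linear means were 7203 ± 769 in CTCF-A KO, 6131 ± 126 in CTCF-B KO and 4901 ± 85.5 in WT (SD, n = 4).

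The AKR1B1 difference from WT was 0.55 ± 0.06 (log2, SE) in CTCF-A KO, a 1.46-fold rise with an adjusted p of 1.11e-05 by limma. In CTCF-B KO it was 0.32 ± 0.06, a 1.25-fold rise with an adjusted p of 0.00127. With the GC and length trend removed AKR1B1 stood at 12.63 ± 0.06 in CTCF-A KO, 12.57 ± 0.02 in CTCF-B KO and 12.26 ± 0.03 in WT (SD, n = 4). A change past the test was common, at 62.9% of all genes for CTCF-A KO (31.8% higher, 31.1% lower) and 39.4% for CTCF-B KO (18.9% higher, 20.6% lower), and by size the AKR1B1 rise was number 656 and number 845 of 11128. With replicate 4 as the sole CTCF-A KO library the first difference was 0.32, and without replicate 4 it was 0.63. Of 1881 stretches of 50 bases in the AKR1B1 transcript, 55 (2.92%) recur in another annotated transcript, among them the pseudogenes AKR1B1P1 with 24 and AKR1B1P2 with 17, and of 1781 stretches of 150 bases 0 do.

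**Figure D1:**
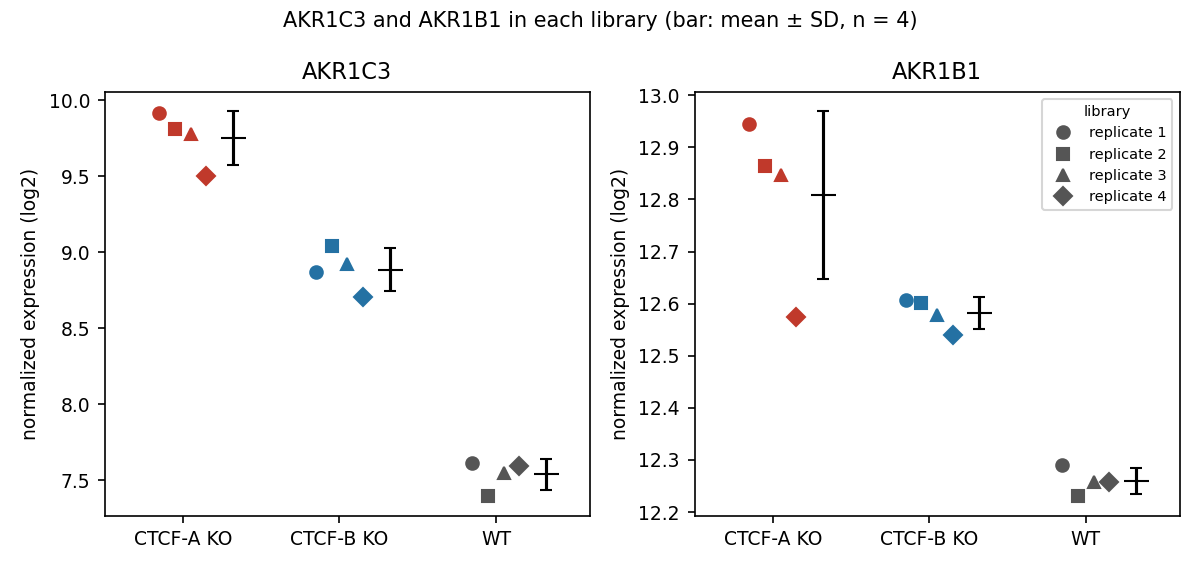
Normalized expression (log2) of AKR1C3 on the left and AKR1B1 on the right in each library of CTCF-A KO, CTCF-B KO and WT, with marker shape for the replicate number and a bar for the mean ± SD of 4 libraries. AKR1C3 separates all 3 groups, while the AKR1B1 value of CTCF-A KO replicate 4 (12.57) lies among those of CTCF-B KO.

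AKR1B1 was the more abundant transcript in every library, and its lead over AKR1C3 was smaller in both knockouts than in WT. Per kilobase of annotated exon, the linear level of AKR1C3 was 191 ± 22.4 in CTCF-A KO, 105 ± 10.0 in CTCF-B KO and 41.1 ± 2.77 in WT (SD, n = 4). That of AKR1B1 was 1968 ± 210, 1675 ± 34.5 and 1339 ± 23.4 in the same order of groups. Among 11102 genes ranked by level per length, AKR1C3 stood above 62.9% of genes in CTCF-A KO, 45.1% in CTCF-B KO and 18.9% in WT. AKR1B1 stood above 96.4%, 96.3% and 94.8%, near the top in each group. The exons of all annotated transcripts cover 4532 bases in AKR1C3 and 3660 in AKR1B1, against 1807 and 1930 in the longest transcript. Levels, ranks and ratios per length depend on which length is used, and would be higher for AKR1C3 relative to AKR1B1 with the latter.

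The ratio of AKR1B1 to AKR1C3 per length was 10.1, 10.3, 10.4 and 10.4 in CTCF-A KO replicates 1 to 4, 16.5, 14.6, 15.6 and 17.7 in CTCF-B KO, and 31.7, 35.4, 32.3 and 31.3 in WT. The 3 groups did not overlap, and in CTCF-A KO, where replicate 4 had the lowest level of both genes, the ratio ran from 10.1 to 10.4 over the libraries. Its SD on the log2 scale was 0.02 in CTCF-A KO as reported and 0.16 with the GC and length trend removed. On the log2 scale AKR1C3 gained 1.67 on AKR1B1 in CTCF-A KO against WT, 1.03 in CTCF-B KO against WT and 0.64 in CTCF-A KO against CTCF-B KO. An exact two-sided permutation test of 4 against 4 libraries gave p = 0.0286 for each, the smallest it can give, and 0.0286 after Benjamini-Hochberg adjustment over the 3 comparisons. With the GC and length trend removed the gains were 1.94, 1.00 and 0.94, with the same exact p. AKR1C3 alone separated the 3 groups, by gaps wider than the range of AKR1B1 over the libraries compared. The exact p was therefore fixed by those values and adds no support of its own. This ratio was chosen after it was seen which members had a row.

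Set directly against each other, the 2 knockouts differed clearly in AKR1C3 and only by some settings in AKR1B1. AKR1C3 was higher in CTCF-A KO than in CTCF-B KO by 0.87 ± 0.09 (log2, SE), which is 1.82-fold with an adjusted p of 3.81e-06 by limma. AKR1B1 was higher by 0.23 ± 0.06, which is 1.17-fold with an adjusted p of 0.00671. Of all genes 66% were called between the knockouts and 33.4% called higher in CTCF-A KO, in 28.3% the CTCF-A KO libraries lay wholly above those of CTCF-B KO, and AKR1C3 was number 328 by size and AKR1B1 number 3164 of 11128. With the trend in GC content and length removed, AKR1C3 stood at 9.85 ± 0.21 in CTCF-A KO against 8.85 ± 0.15 in CTCF-B KO, a difference of 1.00. AKR1B1 then stood at 12.63 ± 0.06 in CTCF-A KO against 12.57 ± 0.02 in CTCF-B KO, and its difference of 0.05 did not pass the test (adjusted p 0.102). With replicate 4 as the sole CTCF-A KO library the AKR1C3 difference was 0.62 and that of AKR1B1 was -0.01. The lone library is assumed there to vary like those of the other groups. The CTCF-A KO libraries in fact varied more, with an AKR1B1 SD before trend removal of 0.16 against 0.03 in CTCF-B KO and in WT. Only the size of a difference is therefore given for that setting.

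**Figure D2:**
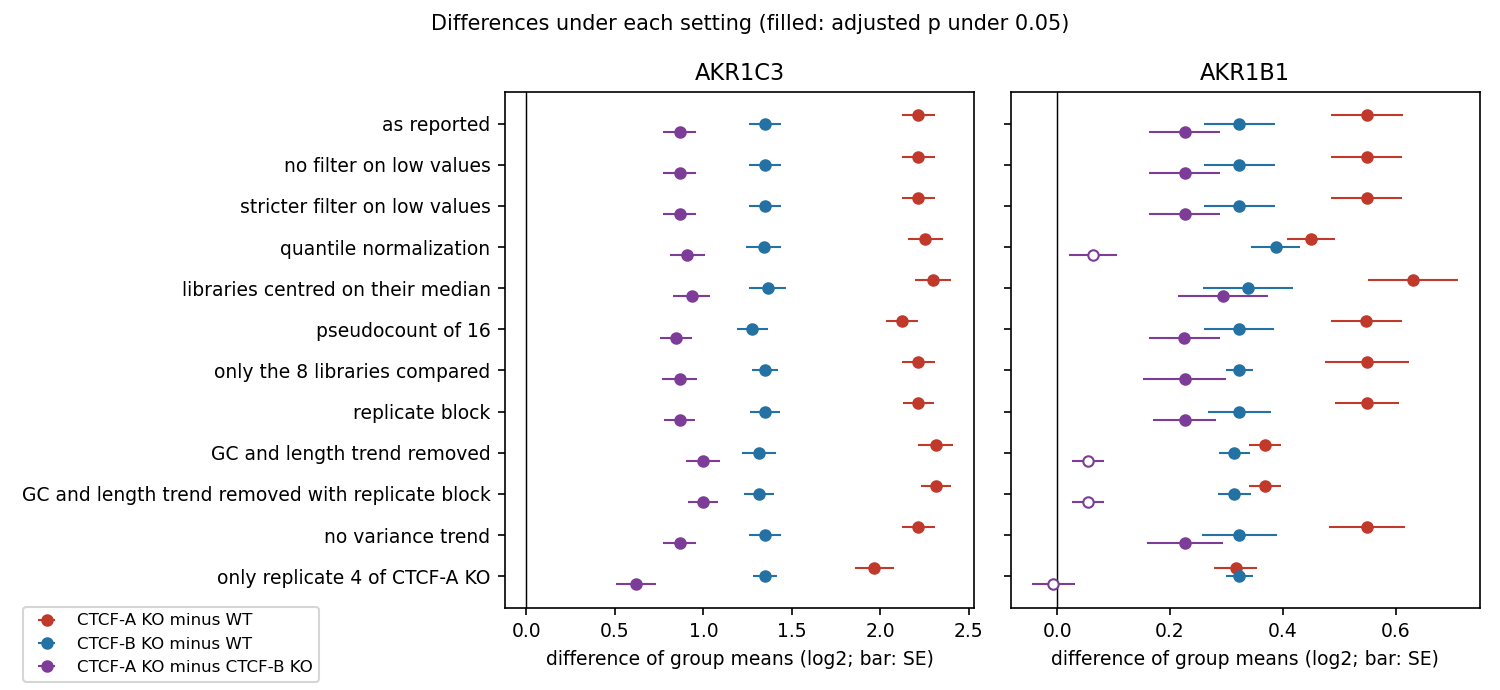
Difference of group means (log2, horizontal axis, with the standard error as a bar) of AKR1C3 on the left and AKR1B1 on the right under each setting, for CTCF-A KO minus WT, CTCF-B KO minus WT and CTCF-A KO minus CTCF-B KO, with filled points for an adjusted p under 0.05. All AKR1C3 points are filled and above 0, whereas the AKR1B1 difference between the knockouts is open at 0.06 with quantile normalization and at 0.05 with the GC and length trend removed. With replicate 4 alone that difference is -0.01, and the fill of points in that setting rests on the spread of the other groups.

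Outside the 2 subfamilies, 3 of 12 other aldo-keto reductase genes looked for had a row. All 3 rose in CTCF-A KO, where 31.8% of all genes rose. None passed the test in CTCF-B KO, where 39.4% of all genes were called. AKR7A2, which reduces succinic semialdehyde, was at 10.86 ± 0.20 (log2, mean ± SD, n = 4) in CTCF-A KO, 10.29 ± 0.02 in CTCF-B KO and 10.32 ± 0.04 in WT. KCNAB2, a potassium channel beta subunit with the aldo-keto reductase fold, was at 9.56 ± 0.13, 8.81 ± 0.06 and 8.82 ± 0.07. AKR1A1, aldehyde reductase, was at 10.46 ± 0.15, 10.23 ± 0.08 and 10.16 ± 0.05. The rises in CTCF-A KO over WT were 0.55 ± 0.08, 0.74 ± 0.06 and 0.30 ± 0.07 (log2, SE) for AKR7A2, KCNAB2 and AKR1A1, with limma adjusted p of 5.78e-05, 9.31e-07 and 0.00241. In CTCF-B KO the differences were -0.03 ± 0.08, -0.01 ± 0.06 and 0.07 ± 0.07, with adjusted p of 0.822, 0.934 and 0.461. With replicate 4 as the sole CTCF-A KO library AKR7A2 was higher by 0.28 and AKR1A1 by 0.09. With the trend removed their rises were 0.34 and 0.09, both past the test.

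Genes that NRF2 is known to regulate were mostly higher in CTCF-A KO and mixed in CTCF-B KO. That list, which leaves out the aldo-keto reductases, had 24 measured genes. In CTCF-A KO 21 rose and 1 fell, where 31.8% of all genes rose and 31.1% fell, and the median difference was 0.59 (log2) beside 0.00485 over all genes. In CTCF-B KO 11 rose and 5 fell, where 18.9% of all genes rose and 20.6% fell, and the median was 0.12 beside 0.00164. With the trend removed 20 rose and 1 fell in CTCF-A KO, and 12 rose and 6 fell in CTCF-B KO. HMOX1, the inducible heme oxygenase, was higher by 2.01 ± 0.10 in CTCF-A KO, against 0.53 ± 0.10 in CTCF-B KO. TRIM16L was higher by 1.17 ± 0.07, MAFG, a small Maf protein that pairs with NRF2, by 0.86 ± 0.05 and GSR, glutathione reductase, by 0.61 ± 0.04 in CTCF-A KO. The gene that fell was UGDH, at -0.59 ± 0.10, which was -0.36 with the trend removed. In CTCF-B KO SRXN1, sulfiredoxin, was higher by 0.74 ± 0.06, whereas TKT, transketolase, was at -0.70 ± 0.07, NQO1, a quinone reductase, at -0.41 ± 0.07 and the exporter ABCC1 at -0.33 ± 0.04.

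The transcript of NRF2 itself was lower in CTCF-A KO, in 3 of its 4 libraries, and did not pass the test in CTCF-B KO. NFE2L2 was at 9.73 ± 0.29 (log2, mean ± SD, n = 4) in CTCF-A KO, 10.21 ± 0.06 in CTCF-B KO and 10.15 ± 0.07 in WT. Its difference from WT was -0.42 ± 0.11 in CTCF-A KO (SE, limma adjusted p 0.00487) while in CTCF-B KO it was 0.06 ± 0.11 (adjusted p 0.686). The CTCF-A KO libraries ran from 9.43 to 10.11 and overlapped those of WT. With the trend removed the CTCF-A KO difference from WT was -0.39 (limma adjusted p 0.0039). With replicate 4 as the sole CTCF-A KO library the difference was -0.03, and without that replicate it was -0.55. KEAP1 was at 11.44 ± 0.14, 11.55 ± 0.02 and 11.33 ± 0.04, and its difference from WT was 0.11 ± 0.06 in CTCF-A KO (adjusted p 0.114), which turned to -0.08 with the trend removed (adjusted p 0.0145), and 0.21 ± 0.06 in CTCF-B KO (adjusted p 0.0109). Of 11 measured regulators of NRF2, 3 rose and 5 fell in CTCF-A KO, among them SQSTM1, the autophagy receptor that binds KEAP1, at 1.40 ± 0.07, NFE2L1 at 0.57 ± 0.05 and BTRC at -0.43 ± 0.08, which was -0.22 with the trend removed. In CTCF-B KO 5 rose and 1 fell, among them MAFF at 0.73 ± 0.08, SQSTM1 at 0.50 ± 0.07, MAFK at 0.41 ± 0.09 and DPP3 at -0.39 ± 0.06. The list medians were -0.29 for CTCF-A KO, which was -0.08 with the trend removed, and 0.15 for CTCF-B KO. Of all genes 62.9% were called in the first comparison and 39.4% in the second, beside 8 and 6 of these 11 genes. NRF2 protein was not measured.

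**Figure D3:**
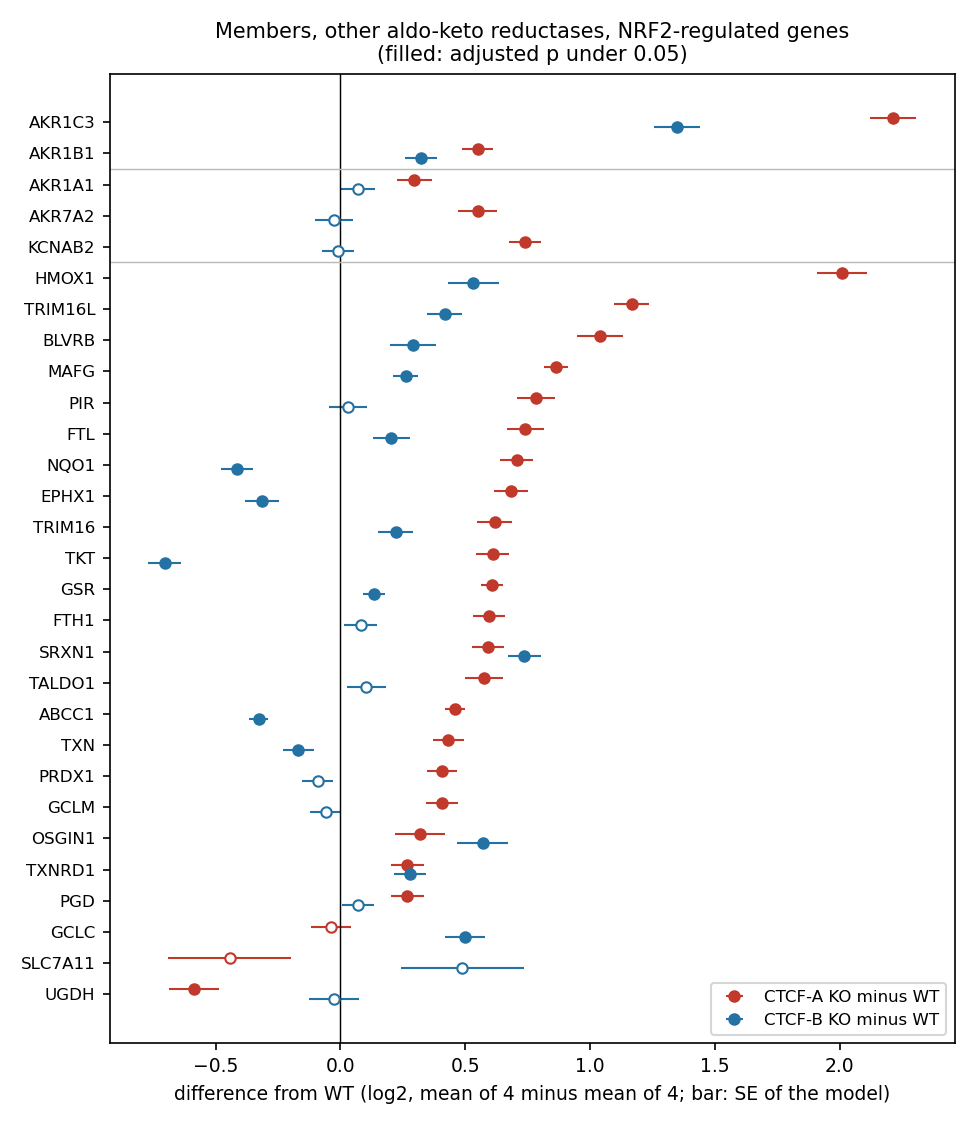
Difference from WT (log2, horizontal axis, with the model's standard error as a bar) in CTCF-A KO and CTCF-B KO for AKR1C3 and AKR1B1, 3 other aldo-keto reductases and 24 genes known to be regulated by NRF2, with filled points for an adjusted p under 0.05. In CTCF-A KO AKR1C3 (2.21) and HMOX1 (2.01) lie farthest to the right, and in CTCF-B KO AKR1C3 (1.35) lies to the right of the others.

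Other enzymes that handle the same kinds of substrate moved differently in the 2 knockouts. Of 30 measured genes for the detoxification of carbonyls and aldehydes, the CTCF-A KO libraries had 17 higher and 6 lower, with a median of 0.28 (log2), while 3 rose and 15 fell in CTCF-B KO with a median of -0.20. Over all genes 31.8% rose and 31.1% fell in the first comparison, and 18.9% rose and 20.6% fell in the second. In CTCF-A KO ALDH3B1, an aldehyde dehydrogenase, was higher by 0.84 ± 0.10 (SE), PTGR1, prostaglandin reductase, by 0.60 ± 0.06, GSTM3 by 0.54 ± 0.07 and MGST1 by 0.40 ± 0.04, the last 2 being glutathione transferases. In CTCF-B KO SORD, which turns the sorbitol made by AKR1B1 into fructose, was at -0.83 ± 0.05, and GSTM4 at -0.71 ± 0.07. ALDH3A2, the fatty aldehyde dehydrogenase, and MGST1 were higher there by 0.38 ± 0.04 and 0.39 ± 0.04. SORD was higher by 0.37 ± 0.05 in CTCF-A KO, so AKR1B1 and SORD, the pair of polyol pathway enzymes, both rose there, whereas in CTCF-B KO AKR1B1 rose and SORD fell. Genes within 2 Mb of SORD on chromosome 15 were also lower in CTCF-B KO, where 16 of 28 fell and 1 rose with a median of -0.37, and in CTCF-A KO 3 fell and 13 rose. Among all genes 20.6% fell for CTCF-B KO, and 31.1% fell and 31.8% rose for CTCF-A KO. The part of this stretch in the SORD value was not tested. SORD has a closely similar pseudogene, so its reads may have been split. With replicate 4 as the sole CTCF-A KO library GSTM3 was higher by 0.31.

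Steroid and prostaglandin enzymes, the pathway of AKR1C3, were called about as often as genes in general, of which 62.9% were called for CTCF-A KO and 39.4% for CTCF-B KO. In CTCF-A KO 6 of 15 measured genes rose and 3 fell, with a median of 0.01 (log2), which was 0.16 with the trend removed, whereas in CTCF-B KO 4 rose and 3 fell with a median of 0.04. SULT1A1, a sulfotransferase, was at 0.94 ± 0.12 (SE) in CTCF-A KO, and the hydroxysteroid dehydrogenases HSD17B14, HSD3B7 and HSD17B12 were at 0.65 ± 0.09, 0.44 ± 0.10 and -0.58 ± 0.06. With replicate 4 as the sole CTCF-A KO library SULT1A1 was at 0.61, HSD17B14 at 0.39 and HSD3B7 at 0.24, and with the trend removed HSD3B7 was at 0.24 and HSD17B12 at -0.22. In CTCF-B KO HSD17B7, HSD17B14 and HSD17B11 were at -0.53 ± 0.07, -0.42 ± 0.09 and 0.29 ± 0.06, and SRD5A1, a steroid reductase, at 0.20 ± 0.05. Of 8 measured genes of retinaldehyde metabolism, a further substrate of aldo-keto reductases, 6 rose and 1 fell in CTCF-A KO with a median of 0.34, where 31.8% of all genes rose, and with the trend removed 4 rose and 0 fell and the median was 0.17. DHRS3, a retinaldehyde reductase, was higher by 2.10 ± 0.07, CYP26B1, which breaks down retinoic acid, by 1.91 ± 0.09 and RDH10, a retinol dehydrogenase, by 0.49 ± 0.08, and RDH11 was at -0.33 ± 0.04, which was -0.13 with the trend removed (adjusted p 0.0854). In CTCF-B KO RDH10 was the gene that rose, by 0.54 ± 0.08, and the median was 0.03. ALDH1A3, RDH13 and RDH11 did not pass the test there, at -0.12, 0.11 and 0.06, with adjusted p of 0.104, 0.21 and 0.239.

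Measured genes on either side of the members were called about as often as all genes, at 62.9% for CTCF-A KO and 39.4% for CTCF-B KO. Within 2 Mb of the AKR1C cluster 11 genes other than AKR1C3 were measured. In CTCF-A KO 2 of them rose and 6 fell, with a median of -0.16 (log2). In CTCF-B KO 3 rose and 2 fell, with a median of 0.11, and with the trend removed 6 rose and 2 fell. KLF6, a zinc finger transcription factor, was at -0.46 ± 0.05 in CTCF-A KO but at 0.43 ± 0.05 in CTCF-B KO. GDI2 was at -0.41 ± 0.05 in CTCF-A KO, while the glycolytic genes PFKP and PFKFB3 were at 0.48 ± 0.06 and 0.27 ± 0.05. With the trend removed GDI2 was at -0.27, PFKP at 0.29 and PFKFB3 at 0.12, and with replicate 4 as the sole CTCF-A KO library PFKFB3 was at 0.14. In CTCF-B KO PFKFB3 was at -0.34 ± 0.05, PITRM1 at 0.28 ± 0.04 and NET1 at 0.26 ± 0.06.

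Around AKR1B1 and AKR1B10 13 genes were measured, of which 3 rose and 5 fell in CTCF-A KO with a median of -0.05, and 3 rose and 2 fell in CTCF-B KO with a median of 0.05. With the trend removed 3 rose and 2 fell for CTCF-A KO, with a median of 0.04, and 4 rose and 3 fell for CTCF-B KO. In CTCF-A KO WDR91 was at 0.35 ± 0.05, TMEM140 at 0.27 ± 0.05, CYREN at 0.24 ± 0.04 and SLC35B4 at -0.29 ± 0.07. With the trend removed TMEM140 was at 0.08 (adjusted p 0.268), CYREN at 0.45 and SLC35B4 at 0.00 (adjusted p 0.929). In CTCF-B KO CYREN was at 0.30 ± 0.04, TMEM140 at 0.29 ± 0.05, CALD1 at -0.74 ± 0.16 and EXOC4 at -0.19 ± 0.04. CYREN and TMEM140 overlap on opposite strands, and whether reads were counted by strand is not given in the sources used here.

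**Figure D4:**
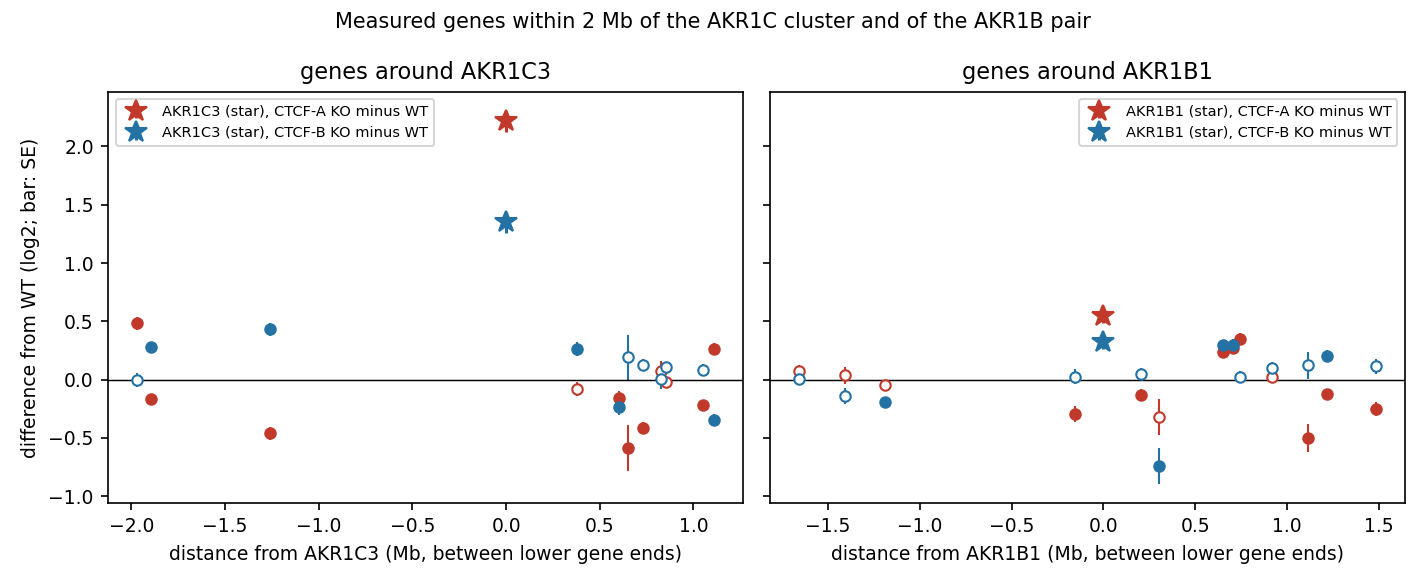
Difference from WT (log2, vertical axis, with the standard error as a bar) of measured genes within 2 Mb of the AKR1C cluster on the left and of AKR1B1 and AKR1B10 on the right, against distance from AKR1C3 or AKR1B1 in Mb, in CTCF-A KO and CTCF-B KO, with filled points for an adjusted p under 0.05 and stars for the members. The AKR1C3 stars, at 2.21 and 1.35, stand well above all neighbours, while the AKR1B1 stars, at 0.55 and 0.32, are closer to the spread around them.

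The genes with the most similar pattern were found by the root-mean-square difference over the 12 libraries, each gene first centred on its WT mean. For AKR1C3 they were OASL at 0.356 (log2), OAS1 at 0.367 and ABLIM3 at 0.467, the first 2 being genes induced by interferon. None lay within 0.1 of AKR1C3 and 4 lay within 0.5. Relative to WT, OASL was higher by 1.89 in CTCF-A KO, against 1.75 in CTCF-B KO, OAS1 by 2.16 and 1.16 and ABLIM3 by 1.46 and 1.19. For AKR1B1 they were CD63 at 0.0341, MRPS23 at 0.0354 and DNAJA3 at 0.0370, with 88 genes within 0.1 and 7081 within 0.5. This measure depends on the size of a change, so a gene that changed more has fewer genes near it, and the 2 sets of counts are not comparable.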

How the data were processed

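Total RNA of 12 libraries of U251-APP cells was sequenced, 4 each of CTCF-A KO, CTCF-B KO and WT. The deposited table holds normalized log2 expression of 11178 genes, which the authors made with Trimmomatic 0.33, featureCounts and DESeq2 on GRCh38.p7, per the submitters' processing notes. The aligner, annotation, strand setting, log2 transformation and read depth are not given in the sources used here, so no counting interval is given. Reads that match several paralogs may have been lost or assigned to another copy, which could change AKR1C values.

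The log2 values were used as deposited. Genes with a linear value (2 raised to the log2 value) of at least 10 in at least 4 libraries were kept, which left 11128 and removed 50. Groups were compared in a single linear model over the 12 libraries (limma 3.58.1, R 4.3.3, trended variance), two-sided, with Benjamini-Hochberg adjustment over all kept genes and calls at 0.05. The fit was tried on simulated data with the same spread in every group and no GC trend. How it behaves with the unequal spread and GC trend of these libraries was not tested. The log2 ratio of both members was compared by exact permutation, an addition made after it was seen which members had a row. The GC and length trend was estimated per library by natural splines (5 and 4 degrees of freedom) for the 99.7% of genes with known values. Annotation was GENCODE 29. Alternatives were filters, normalization, a pseudocount of 16, single libraries left out, a replicate block and the trend removal.

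Named genes were both members, NFE2L2, KEAP1, up to 4 genes per list with the smallest adjusted p in each comparison with WT, and the 3 nearest profiles of each member. UGDH, and single values of HMOX1 and SORD in the other knockout and the genes around SORD, were given after their values were seen. Members and lists were chosen with earlier results of these data known. A sum over AKR1C genes and ratios between 4 planned pairs of members were not computed because those members had no row. A gene of the NRF2-regulated list is not reported here and was left out of that list's counts.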

Additional observations from a re-analysis of the deposited data

How the results depend on the processing

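The AKR1C3 rise was called under every setting that kept more than 1 CTCF-A KO library. Leaving out single libraries, it was 2.16 to 2.30 (log2) in CTCF-A KO against WT, 1.296 to 1.41 in CTCF-B KO against WT and 0.81 to 0.95 in CTCF-A KO against CTCF-B KO, and under the other settings 1.97 to 2.31, 1.28 to 1.36 and 0.62 to 1.00. For AKR1B1 leaving out single libraries gave 0.50 to 0.63, 0.31 to 0.34 and 0.18 to 0.30 in the same 3 comparisons. Under the other settings the AKR1B1 rise was 0.32 to 0.63 in CTCF-A KO against WT and 0.31 to 0.39 in CTCF-B KO against WT. The AKR1B1 difference between the knockouts did not pass at 0.0635 with quantile normalization, at 0.0543 with the trend removed or at 0.0543 with the trend removed and a replicate block, and it turned to -0.0070 with replicate 4 as the sole CTCF-A KO library. In that last setting the genes called in CTCF-A KO against WT were 4654, against 7002, and in CTCF-B KO against WT 6604, against 4389. Fitting the CTCF-B KO and WT libraries alone called 6601. The cause was not tested. Leaving out single libraries, the genes called were 6182 to 8210 in CTCF-A KO against WT, 3670 to 5824 in CTCF-B KO against WT and 6734 to 8425 in CTCF-A KO against CTCF-B KO. Same-numbered deviations from the group means correlated at -0.319 to 0.433. These values cannot decide whether the replicate numbers pair the samples, since differently numbered libraries were not compared. A replicate block left the differences at 2.21, 1.35 and 0.87 for AKR1C3 and 0.55, 0.32 and 0.23 for AKR1B1, with every call kept. Leaving out single libraries moved the log2 ratio of both members by less than its spread, whereas trend removal took it to 1.94 in CTCF-A KO against WT, from 1.67, and to 0.94 in CTCF-A KO against CTCF-B KO, from 0.64. Read depth is unknown and limits any statement on members without a row.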
